A study of Mus musculus with 11 samples.

Results

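Interferon response genes were followed across effector T cells that carried or lacked the transcription factor Thpok. The set was a given list of 59 mouse genes that are induced by interferons or act in their signalling, and 46 of them could be read on a probe set that the platform annotation assigns to a single symbol, out of 14835 genes so measured. Of these 46 genes, 34 were classed as type I interferon genes and 11 as interferon-gamma genes, and Irf2, which restrains genes of both kinds, was kept apart. Isg15, Ifi44, Ifitm2, Usp18, Xaf1, Herc6 and Nlrc5 had no probe set named here, and Ifit3, Ifitm1, Oas3, Eif2ak2, Gbp4 and Sp100 were found on probe sets shared with other symbols and were not used.

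RNA from 11 sorted populations in 4 groups was hybridised to Affymetrix arrays. Wild-type T cells gave CD4+CD8- effectors (n = 3) and CD4-CD8+ effectors (n = 2). Mice of the genotype Thpokf/f CD2cre, in which a Cre recombinase driven by CD2 sequences deletes floxed Thpok alleles in lymphocytes, gave CD4+CD8- effectors (n = 3) and CD4+CD8+ effectors (n = 3). All groups shared the culture: CD44lo spleen T cells were activated with anti-CD3 at 1 µg/ml and anti-CD28 at 3 µg/ml on irradiated, T cell-depleted C57BL/6 splenocytes, with IL-2 at 50 U/ml, IL-12 at 10 ng/ml and anti-IL-4 at 10 µg/ml, a Th1-directing mixture. Cells were sorted on day 4. The arrays came from 2 cell preparations, with no label that assigns an array to its preparation. The p-values therefore measure the spread between these arrays, part of which may be technical. Ages and strain background of the T cell donors are not stated in the labels. Below, these groups are called wild-type CD4, wild-type CD8, Thpok-deficient CD4 and DP cells, the last being the Thpok-deficient CD4+CD8+ population.

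Interferons are secreted cytokines that act through paired receptors. Type I interferons signal through Ifnar1 and Ifnar2 to a complex that includes Stat2 and Irf9 and binds the interferon-stimulated response element, and they induce sensors of viral nucleic acid and antiviral effectors. Interferon-gamma, the signature cytokine of Th1 and cytotoxic T cells, signals through Ifngr1 and Ifngr2, acts on genes that carry the gamma-activated site, and induces Irf1, guanylate binding proteins and the machinery of class I antigen presentation. The classes overlap, since most of these genes answer to either cytokine to some degree. Thpok, the product of Zbtb7b, is a repressor that helper T cells need to keep their identity.

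Both response elements were present in the promoters of many members. RefSeq promoters (build GRCm38.p6, 250 bases before to 50 after each start) were matched for 37 of the 46 genes, which gave 48 windows. The response element core, searched as GAAA, any bases NN and GAAA on both strands, was in 13 of 48 windows (27.1%), and in 3.44% of all 32851 promoters of the same length. The gamma-activated site, searched as TTCNNNGAA, was in 11 of 48 windows (22.9%), against 8.30% of all promoters. The core was in 9 of 34 windows of type I genes and in 3 of 13 of interferon-gamma genes, and the gamma-activated site in 6 of 34 and 4 of 13. Psmb9 and Tap1 are read in opposite directions from windows that overlap by 275 bases on chromosome 17.

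The promoters below are examples chosen among windows that hold a match, and not every gene described below has one. Neither window of Ifit2 held the core, though 1 held a gamma-activated site. Neither window of Irf9 held either element, nor did the other windows of Irf1 and Irf8. Capitals mark the response element core in Trim34a (chr7:104244207-104244506, + strand), Ifih1 (chr2:62646206-62646505, - strand) and Gbp2 (chr3:142620413-142620712, + strand), and the gamma-activated site in Irf8 (chr8:120736108-120736407, + strand) and Irf1 (chr11:53769764-53770063, + strand). A match of these letters is a description and not a shown binding site.
Trim34a: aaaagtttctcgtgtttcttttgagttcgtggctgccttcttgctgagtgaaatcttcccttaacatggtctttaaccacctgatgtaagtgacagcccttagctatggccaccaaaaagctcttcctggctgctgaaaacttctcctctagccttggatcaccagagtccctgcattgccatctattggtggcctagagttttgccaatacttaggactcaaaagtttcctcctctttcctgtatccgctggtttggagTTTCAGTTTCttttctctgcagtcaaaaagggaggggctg
Ifih1: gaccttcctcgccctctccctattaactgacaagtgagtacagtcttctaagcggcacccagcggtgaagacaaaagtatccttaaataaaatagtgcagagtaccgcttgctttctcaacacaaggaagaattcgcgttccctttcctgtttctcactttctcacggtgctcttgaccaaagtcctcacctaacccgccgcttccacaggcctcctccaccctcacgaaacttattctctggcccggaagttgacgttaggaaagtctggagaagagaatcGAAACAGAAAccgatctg
Gbp2: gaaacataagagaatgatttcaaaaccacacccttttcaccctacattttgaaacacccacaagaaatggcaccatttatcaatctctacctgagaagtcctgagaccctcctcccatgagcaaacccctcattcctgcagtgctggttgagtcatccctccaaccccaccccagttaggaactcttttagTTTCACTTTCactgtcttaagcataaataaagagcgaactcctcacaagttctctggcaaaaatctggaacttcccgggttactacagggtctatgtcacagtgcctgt
Irf8: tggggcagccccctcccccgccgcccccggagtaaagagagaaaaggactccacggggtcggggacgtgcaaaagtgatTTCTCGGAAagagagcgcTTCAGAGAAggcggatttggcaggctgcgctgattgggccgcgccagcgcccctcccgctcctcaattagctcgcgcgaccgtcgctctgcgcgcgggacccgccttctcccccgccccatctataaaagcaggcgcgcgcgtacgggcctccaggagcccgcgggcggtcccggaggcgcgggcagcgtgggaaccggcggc
Irf1: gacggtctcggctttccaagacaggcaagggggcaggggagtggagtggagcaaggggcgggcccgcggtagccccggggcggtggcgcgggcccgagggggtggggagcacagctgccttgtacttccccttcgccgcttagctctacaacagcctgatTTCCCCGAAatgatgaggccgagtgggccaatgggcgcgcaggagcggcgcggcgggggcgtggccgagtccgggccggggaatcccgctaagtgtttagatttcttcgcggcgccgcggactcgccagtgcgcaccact

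The core of Trim34a and Ifih1 lies downstream of the annotated start, with its first base 11 and 33 bases from it, and that of Gbp2 begins at -59. Irf8 holds a pair of gamma-activated sites, beginning at -171 and -153, and Irf1 holds one that begins at -90.

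The levels below are log2 intensities as deposited, given in the order of replicates 1, 2 and 3. A level on one probe set cannot be set against another, so each gene is compared with itself across groups. A call is an adjusted p under 0.05 from limma, with Benjamini-Hochberg adjustment over all 16673 probe sets. Replicate 3 of the wild-type CD4 cells and replicate 3 of the DP cells stood apart. Their values spread with an SD of 1.54 and 1.70, against 1.94 to 2.06 on the other 9 arrays. The 95th percentile of 809 olfactory, vomeronasal and trace amine receptor probe sets, taken as background in T cells, was 7.34 and 6.53 on them, against 5.18 to 5.80 elsewhere. By that level 21 and 30 members were above background on these arrays, and 33 to 39 on the others. Results are therefore given on 11 arrays and again on the 9 others. All 8 T cell markers measured of 9 listed were above background on every array. Zbtb7b ranged from 8.03 to 8.70 in wild-type CD4 cells, 6.89 to 7.23 in wild-type CD8 cells, 6.77 to 7.17 in Thpok-deficient CD4 cells and 6.30 to 7.0 in DP cells, and its probes need not lie in the deleted part. Cd8a ranged from 4.49 to 6.14, 11.56 to 11.78, 6.41 to 7.50 and 9.67 to 10.28 in the same order of groups.

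Of the 46 members, 21 were above background on all 11 arrays, 10 of them type I and 10 interferon-gamma genes. Mx2, Oas2, Rsad2, Cmpk2 and Ube2l6 were above it on none. Mx1, an antiviral GTPase, passed it on 1 array. Replicate 2 of the wild-type CD4 cells was the highest array for 18 members, a count without a share over all probe sets beside it. The heat map shows the members by array.

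**Figure D1:**
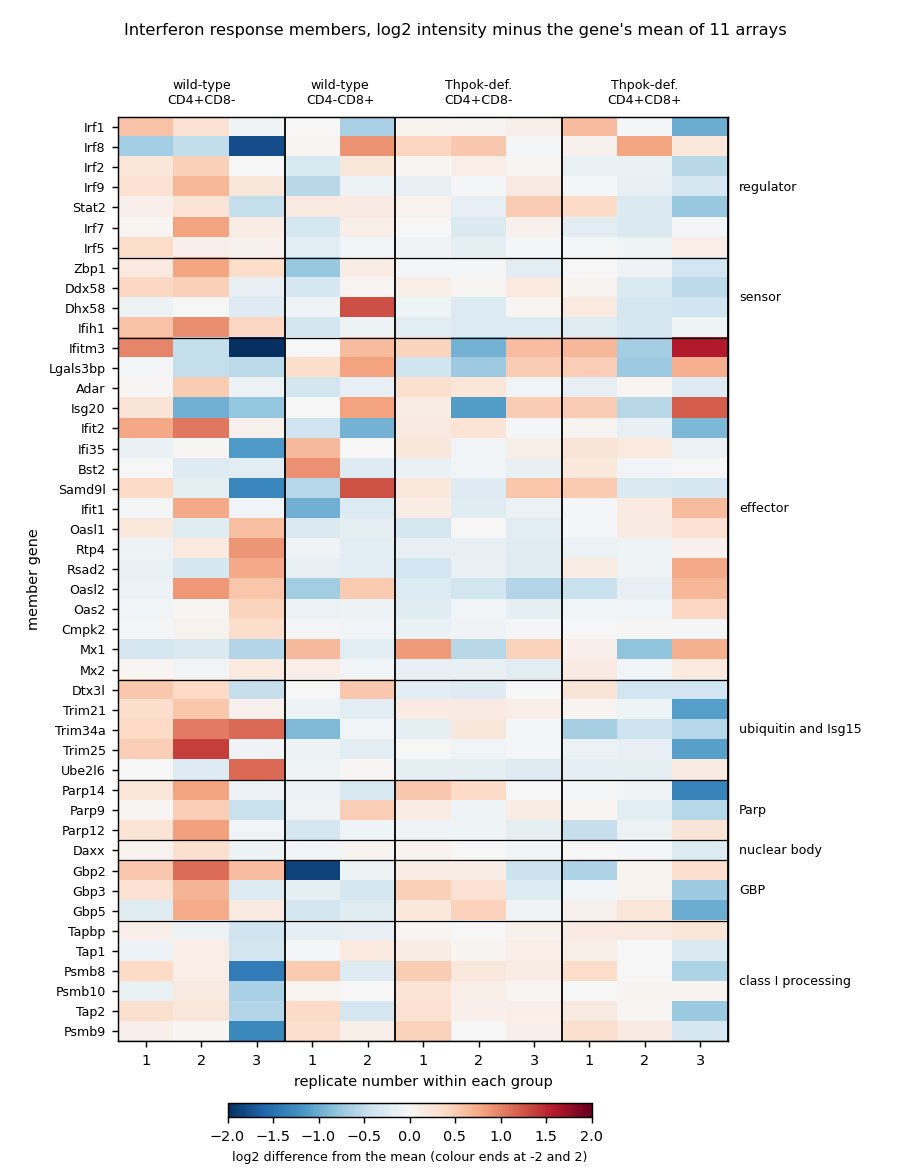
Log2 intensity of each of the 46 measured members (rows) on each of the 11 arrays (columns, by group), shown as the difference from that gene's mean over the arrays. Replicate 2 of the wild-type CD4 cells is the highest array for 18 members. Replicate 3 of the DP cells, an array of narrow spread, is the lowest for 13, of which 10 are above background on all 11 arrays. Shares over all probe sets are not given, so these counts are not shown to be particular to the members.

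No member was called in any of the 6 comparisons between groups or in the moderated F test over the 4 groups on 11 arrays (limma). The F test called 0.246% of all probe sets, and 6 of the 46 members had an unadjusted p under 0.05, as did 8.07% of all probe sets. Against wild-type CD4 cells, wild-type CD8 cells gave 1 higher and 7 lower members at an unadjusted p under 0.05, Thpok-deficient CD4 cells gave 1 and 4, and DP cells gave 1 and 10. The shares of all probe sets were 7.76% higher and 3.72% lower in the first, 7.39% and 3.00% in the second, and 5.36% and 3.98% in the third. On 9 arrays these counts were 1 and 16, 1 and 9, and 1 and 11, where the shares of all probe sets were 7.49% and 7.96%, 6.39% and 5.64%, and 5.71% and 6.23%. Adjusted calls in either direction on 11 arrays were 0.534%, 0.0840% and 0.204% of all probe sets. A p that misses the threshold does not show that the groups are alike, and 2 or 3 arrays a group limit what can be called.

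The wild-type CD4 cells had the highest group mean for 23 of the 46 members (50.0%), and for 35.4% of all probe sets. On 9 arrays the same held for 28 members (60.9%) and 28.4% of all probe sets. These 28 comprised 22 of the 34 type I genes and 5 of the 11 interferon-gamma genes, with Irf2 as the last. In bulk samples such as these, fewer cells expressing a gene and less RNA per cell cannot be told apart.

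The type I genes had a median difference from wild-type CD4 cells of -0.32 in wild-type CD8 cells, -0.26 in Thpok-deficient CD4 cells and -0.23 in DP cells. The medians of all probe sets were -0.14, -0.15 and 0.00. On 9 arrays the type I medians were -0.20, -0.20 and -0.28, where those of all probe sets were -0.01, -0.03 and 0.05. The interferon-gamma genes had medians of 0.04, 0.19 and 0.06 on 11 arrays and of -0.16, 0.02 and -0.07 on 9. The wild-type CD8 median of this class was also -0.14 after a further quantile normalization, so its sign was not settled. With the class narrowed to the 7 Gbp, Irf1 and Psmb genes the medians were -0.51, -0.03 and -0.39 on 11 arrays and -0.55, -0.05 and -0.08 on 9. The 3 comparisons share the wild-type CD4 arrays, so these values are not independent of each other. The class median taken on each of the 11 arrays had a pooled within-group SD of 0.21 for the type I genes. That SD was 0.36 for the 11 interferon-gamma genes.

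**Figure D2:**
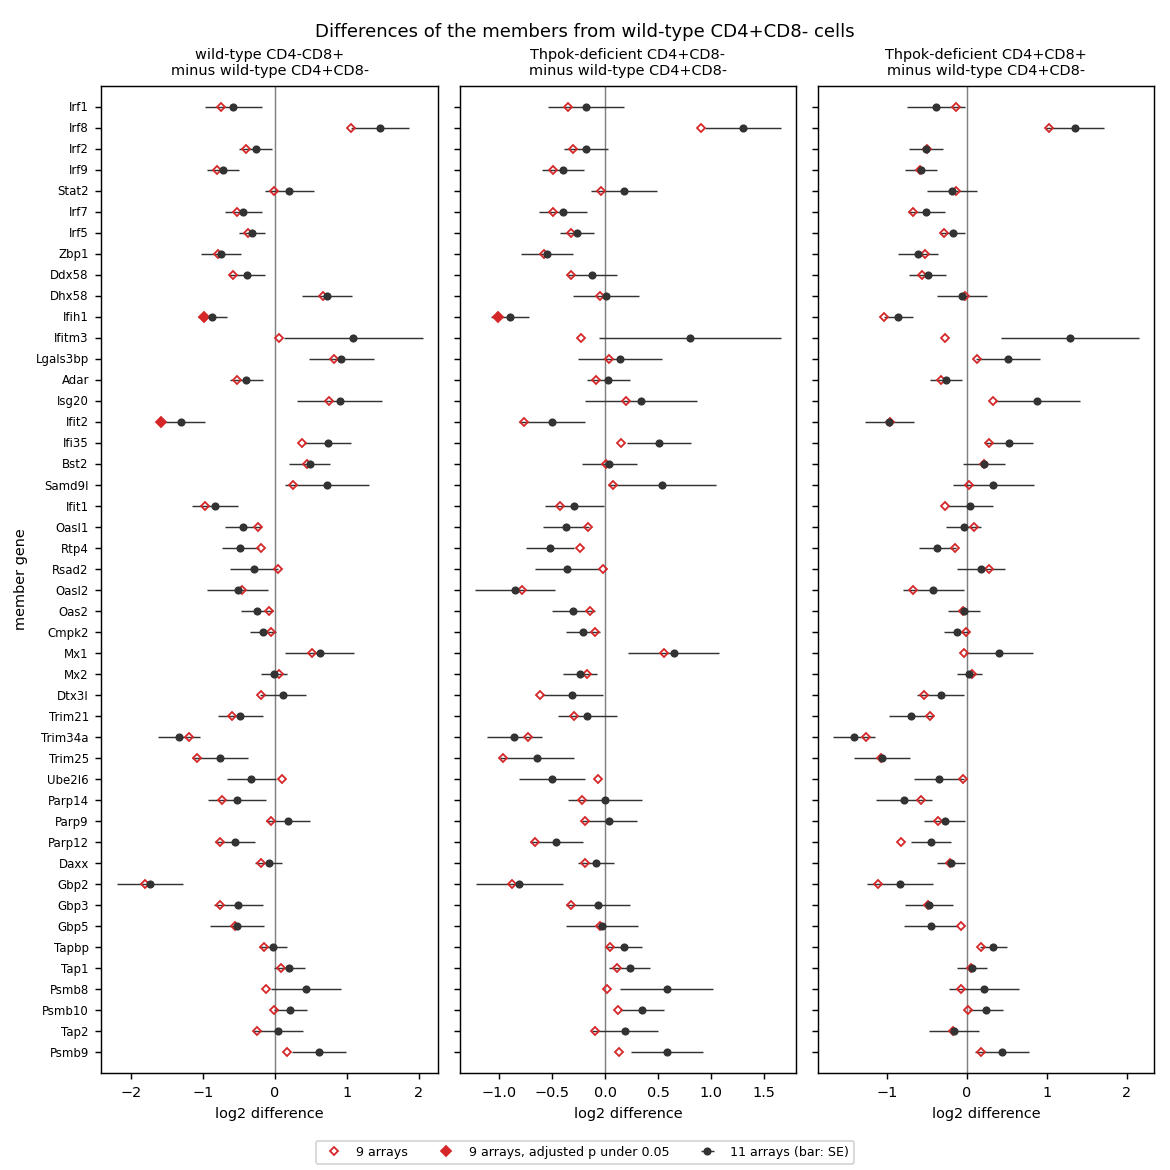
Log2 difference of each member from wild-type CD4 cells in the 3 other groups, with black points and SE bars from 11 arrays and open red diamonds from 9 arrays. Filled diamonds are the adjusted p values under 0.05 on 9 arrays, which are Ifih1 and Ifit2 in the first panel and Ifih1 in the second; Irf8 lies farthest to the right and Trim34a and Gbp2 far to the left.

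Among the regulators, Irf8 stood higher on every array outside the wild-type CD4 cells but was not called. Irf8 encodes an interferon-gamma-induced transcription factor of myeloid and B cells that is also expressed in activated T cells, where it has a role in effector CD8 cells. Its level was 8.57, 8.77 and 7.49 in wild-type CD4 cells, 9.30 and 10.17 in wild-type CD8 cells, 9.70, 9.81 and 9.23 in Thpok-deficient CD4 cells, and 9.36, 10.06 and 9.47 in DP cells. Every array of the 3 latter groups was above every wild-type CD4 array. The differences were 1.46 ± 0.40 (SE), 1.30 ± 0.36 and 1.35 ± 0.36, with limma adjusted p of 0.157, 0.192 and 0.187. Irf8 was the single member higher at an unadjusted p under 0.05 in each of these comparisons. On 9 arrays the differences were 1.06, 0.91 and 1.03, with limma adjusted p of 0.185, 0.291 and 0.276.

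Cells of the kinds that present antigen are known to express Irf8, so their markers are given beside it. Of 7 B cell markers measured, 0 to 1 were above background on any array, and the mean of the list ranged from 4.38 to 5.33 in wild-type CD4 cells, 4.71 to 4.77 in wild-type CD8 cells, 4.36 to 4.56 in Thpok-deficient CD4 cells and 4.64 to 5.28 in DP cells. Ms4a1, Cd22, Pax5, Blk and Fcer2a were above background on 0 arrays. Cd79b, a subunit of the B cell receptor, was 4.53, 4.62 and 5.81 in wild-type CD4 cells and 7.92 and 7.46 in wild-type CD8 cells, a difference of 2.71 ± 0.51 (SE, adjusted p = 0.0513, limma) and of 3.12 on 9 arrays (adjusted p = 0.0386). It was 5.23, 4.96 and 6.38 in Thpok-deficient CD4 cells and 6.93, 5.64 and 6.41 in DP cells. It was the single B cell marker of 7 with a positive difference in wild-type CD8 cells on 11 arrays, and the median of the list was -0.28. On 9 arrays 2 of the 7 were positive there, and the median was -0.03. Of 9 myeloid and dendritic cell markers, 0 to 3 were above background, with list means of 4.80 to 5.11, 4.70 to 4.75, 4.57 to 4.85 and 4.71 to 5.16 in the 4 groups in the same order. Csf1r, Cd14, Adgre1, Siglech, Flt3 and Clec9a were above background on 0 arrays. Cd68, a lysosomal protein of macrophages, was 7.37, 7.20 and 7.05 in wild-type CD4 cells, 8.38 and 8.47 in wild-type CD8 cells, 8.48, 7.70 and 8.53 in Thpok-deficient CD4 cells and 8.70, 7.49 and 8.71 in DP cells. All its levels outside the wild-type CD4 cells were higher than those within. On 11 arrays it was the single myeloid marker of 9 with a positive difference in wild-type CD8 and in Thpok-deficient CD4 cells. In DP cells 5 of 9 were positive. On 9 arrays 2, 2 and 6 of the 9 were positive in these 3 groups. Fcgr3, an Fc receptor, had group means of 6.32, 5.04, 5.43 and 5.40 and passed background on 4 arrays. Itgam, an integrin of myeloid cells, had group means of 6.16, 5.84, 5.38 and 5.70 and passed it on 7. Of 3 MHC class II genes measured, H2-Ab1 was above background on 10 arrays. It was 7.74, 6.33 and 5.76 in wild-type CD4 cells, 7.44 and 9.02 in wild-type CD8 cells, 6.42, 6.09 and 7.78 in Thpok-deficient CD4 cells and 7.85, 6.00 and 6.67 in DP cells. Its groups overlapped, and the difference of wild-type CD8 from wild-type CD4 cells was 1.62 ± 0.74 (SE, adjusted p = 0.437, limma). Cd74, above background on 5 arrays, had group means of 5.39, 5.03, 5.13 and 5.66. H2-Aa, above it on 0 arrays, had 4.24, 3.82, 3.92 and 4.39. Against wild-type CD4 cells, 1, 1 and 3 of the 3 class II genes were positive on 11 arrays, with medians of -0.36, -0.26 and 0.23. On 9 arrays 1, 0 and 2 were positive. Replicate 2 of the wild-type CD8 cells was the highest array for both H2-Ab1 and Irf8, but other arrays did not pair high with high. Irf8 was 10.06 in replicate 2 of the DP cells and 9.81 in replicate 2 of the Thpok-deficient CD4 cells, where H2-Ab1 was 6.00 and 6.09. In replicate 1 of the wild-type CD4 cells Irf8 was 8.57 and H2-Ab1 was 7.74. The part of these cells in the Irf8 values was not tested.

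Irf9, the DNA-binding partner of Stat2, had its highest levels in wild-type CD4 cells and was not called on 11 arrays. It was 9.03, 9.39 and 8.96 in wild-type CD4 cells, 8.17 and 8.63 in wild-type CD8 cells, 8.57, 8.70 and 8.90 in Thpok-deficient CD4 cells and 8.69, 8.56 and 8.39 in DP cells. The wild-type CD4 arrays were above all others, although by a narrow margin, 8.96 against 8.90. The differences were -0.72 ± 0.22 (SE), -0.40 ± 0.20 and -0.58 ± 0.20, with limma adjusted p of 0.205, 0.528 and 0.318. After a further quantile normalization the first of them was -0.96 with an adjusted p of 0.0464.

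Irf1, the regulator induced early by interferon-gamma, overlapped between wild-type CD4 cells and each other group. Its Thpok-deficient CD4 arrays were all above the wild-type CD8 arrays. It was 10.38, 10.10 and 9.74 in wild-type CD4 cells, 9.82 and 9.16 in wild-type CD8 cells, 9.88, 9.87 and 9.93 in Thpok-deficient CD4 cells and 10.45, 9.77 and 8.82 in DP cells. The DP cells held both its highest and its lowest array. Irf7, which amplifies type I interferon production, was 7.0, 7.76 and 7.10, then 6.61 and 7.07, then 6.94, 6.67 and 7.04, and then 6.73, 6.67 and 6.92 in the same order of groups. Its wild-type CD4 level overlapped the other CD4 and the CD8 cells, and exceeded every DP array. Stat2 was 7.83, 8.0 and 7.25, then 7.90 and 7.89, then 7.80, 7.57 and 8.24, and then 8.11, 7.44 and 6.97, and its groups overlapped. Irf2 and Irf5 had differences of -0.51 to -0.18 in the 3 comparisons with wild-type CD4 cells.

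**Figure D3:**
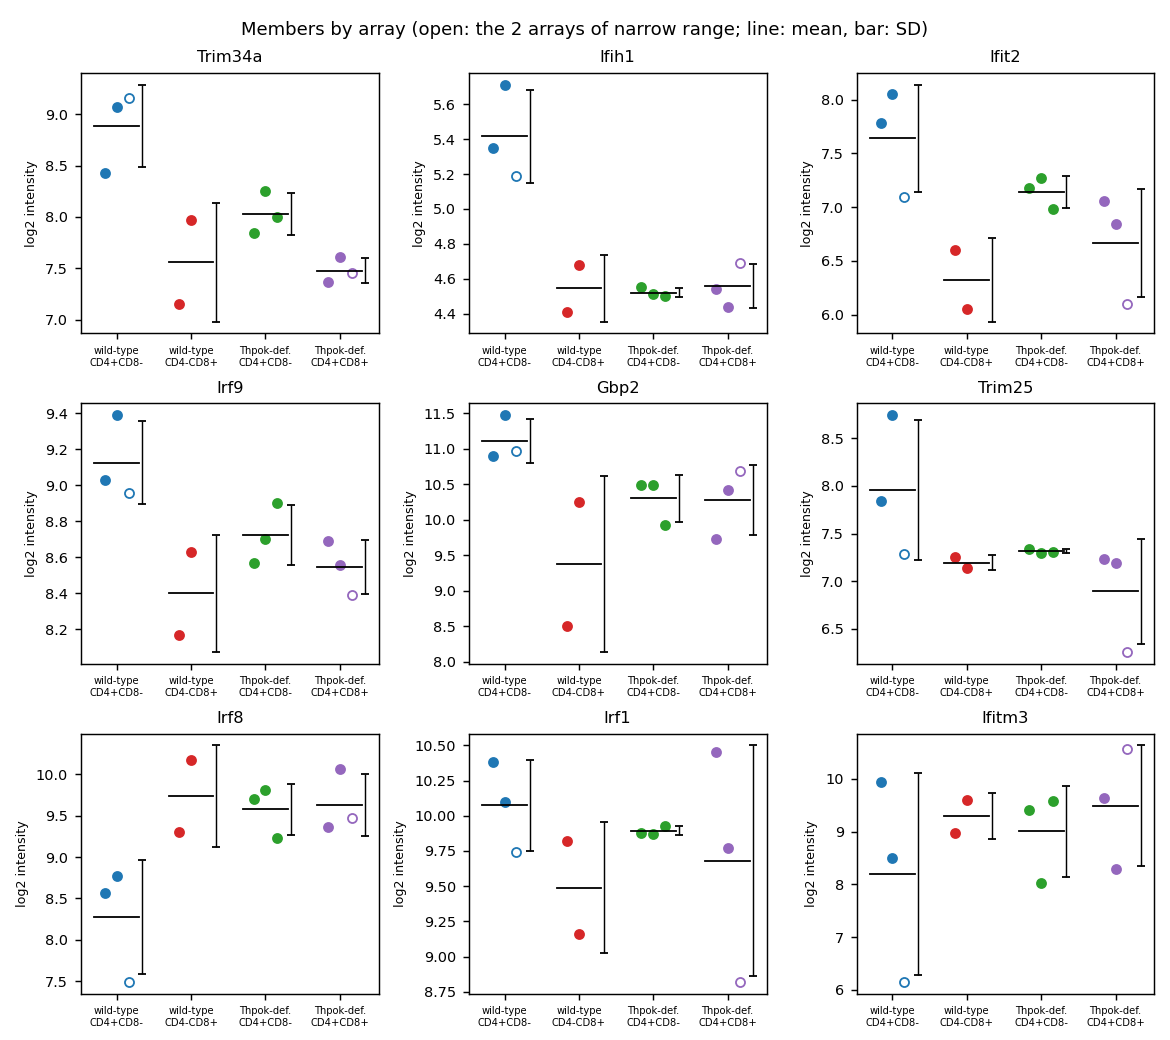
Log2 intensity of 9 members on each array by group, with the mean as a line, the SD as a bar and open points for replicate 3 of the wild-type CD4 and of the DP cells. Trim34a, Ifih1 and Gbp2 are highest in wild-type CD4 cells and Irf8 is lowest there. For Irf1 and Ifitm3 each other group overlaps the wild-type CD4 cells.

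The sensors of viral nucleic acid had medians of -0.57, -0.33 and -0.55 over 4 genes in the same order. Ifih1, the sensor of long RNA duplexes also called MDA5, was 5.35, 5.71 and 5.19 in wild-type CD4 cells. It was 4.41 and 4.68 in wild-type CD8 cells, 4.55, 4.51 and 4.50 in Thpok-deficient CD4 cells and 4.54, 4.44 and 4.69 in DP cells. No array of the other groups reached the wild-type CD4 range, and the difference was -0.87 ± 0.20 (SE), -0.90 ± 0.18 and -0.86 ± 0.18, with limma adjusted p of 0.0940, 0.108 and 0.105. On 9 arrays Ifih1 was called lower in wild-type CD8 cells (-0.99, adjusted p = 0.0280) and in Thpok-deficient CD4 cells (-1.01, adjusted p = 0.0448), and its adjusted p in DP cells was 0.0653 at -1.04. It was above the receptor background on 1 array, so its lower levels are bounds more than measured levels.

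Zbp1, a sensor of left-handed nucleic acid, was likewise highest in wild-type CD4 cells, at 9.06, 9.65 and 9.24. It was 8.11 and 9.02 in wild-type CD8 cells, 8.83, 8.82 and 8.66 in Thpok-deficient CD4 cells and 8.85, 8.79 and 8.49 in DP cells, with no overlap. It passed background on all 11 arrays, unlike Ifih1, and was not called. Ddx58, the sensor RIG-I, had differences of -0.39, -0.12 and -0.49. Dhx58, a regulator of both RNA sensors, had 0.72, 0.01 and -0.06, the first resting on replicate 2 of the CD8 cells at 7.40 against 6.04 in replicate 1.

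Of the antiviral effectors, 17 were measured and their medians were -0.17, -0.21 and 0.04 on 11 arrays, with members on either side. On 9 arrays the medians were 0.04, -0.10 and -0.01, so the signs in wild-type CD8 and DP cells were not settled. These medians include Mx2, Oas2, Rsad2 and Cmpk2, which were above background on 0 arrays. Ifit2, which binds viral RNA and blocks its translation, was 7.78, 8.05 and 7.09 in wild-type CD4 cells and 6.60 and 6.05 in wild-type CD8 cells. It was 7.18, 7.27 and 6.98 in Thpok-deficient CD4 cells and 7.06, 6.84 and 6.10 in DP cells. The wild-type CD8 arrays lay below all wild-type CD4 arrays and below all Thpok-deficient CD4 arrays. The difference from wild-type CD4 cells was -1.31 ± 0.34 (SE, adjusted p = 0.134, limma) in wild-type CD8 cells, -0.50 ± 0.31 (adjusted p = 0.557) in Thpok-deficient CD4 cells and -0.97 ± 0.31 (adjusted p = 0.270) in DP cells. The first was called on 9 arrays (-1.59, adjusted p = 0.0199) and after a further quantile normalization (-1.44, adjusted p = 0.0379).

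The 2 members called lower in wild-type CD8 cells on 9 arrays, Ifit2 and Ifih1, compare with 0.876% of all probe sets called lower there. For Thpok-deficient CD4 cells the single member, Ifih1, compares with 0.126%. Ifit1, of the same family as Ifit2, had -0.84, -0.29 and 0.04 on 11 arrays and passed background on 5 of them.

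Ifitm3, which blocks virus entry at endosomal membranes, spread widely within groups. It was 9.95, 8.50 and 6.15 in wild-type CD4 cells, 8.98 and 9.60 in wild-type CD8 cells, 9.41, 8.02 and 9.59 in Thpok-deficient CD4 cells and 9.63, 8.29 and 10.56 in DP cells. The differences of 1.09, 0.80 and 1.29 on 11 arrays became 0.06, -0.23 and -0.27 on 9. Lgals3bp, a secreted glycoprotein induced by interferon, was 7.99, 7.54 and 7.47, then 8.37 and 8.81, then 7.62, 7.28 and 8.52, and then 8.50, 7.29 and 8.74. Its CD8 arrays were above the wild-type CD4 arrays, and both Thpok-deficient groups overlapped them. Isg20, Ifi35, Bst2 and Samd9l also had positive differences in all 3 comparisons, from 0.04 to 0.90, and none was called.

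The ubiquitin and Isg15 group had medians of -0.48, -0.50 and -0.70 over 5 genes on 11 arrays. The value of -0.50 is that of Ube2l6, which was above background on 0 arrays. On 9 arrays the medians were -0.60, -0.62 and -0.54. Trim34a, a member of the tripartite motif family of ubiquitin ligases, was 8.43, 9.07 and 9.16 in wild-type CD4 cells. It was 7.15 and 7.97 in wild-type CD8 cells, 7.84, 8.25 and 8.0 in Thpok-deficient CD4 cells and 7.37, 7.61 and 7.45 in DP cells. No array of the other groups reached the wild-type CD4 range, and every DP array was also below every Thpok-deficient CD4 array.

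The difference of Trim34a from wild-type CD4 cells was -1.33 ± 0.29 (SE, adjusted p = 0.0823, limma), -0.86 ± 0.26 (adjusted p = 0.237) and -1.41 ± 0.26 (adjusted p = 0.0754). With the replicate number as a block, its adjusted p in the last comparison was 0.0247, where 0.180% of all probe sets were called lower. Same-numbered arrays deviated together in that comparison only, but the arrays of narrow spread share a number there. That the numbers are pairs was therefore not shown. On 9 arrays the first and last differences were -1.19 (adjusted p = 0.116) and -1.26 (adjusted p = 0.161). Trim34a has a close neighbouring copy in the mouse genome, Trim34b, and probes may read both.

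Trim25, the ligase that activates RIG-I, was 7.84, 8.74 and 7.29 in wild-type CD4 cells, 7.25 and 7.14 in wild-type CD8 cells, 7.34, 7.30 and 7.31 in Thpok-deficient CD4 cells and 7.23, 7.19 and 6.26 in DP cells. Its highest value was again replicate 2 of the wild-type CD4 cells. The differences were -0.76 ± 0.39 (SE), -0.64 ± 0.35 and -1.06 ± 0.35, with limma adjusted p of 0.524, 0.557 and 0.299. Trim21, an antibody receptor in the cytosol, had -0.48, -0.17 and -0.70. Of the Parp genes, which modify proteins with ADP-ribose, Parp14 had -0.53, 0.00 and -0.79. Parp12 had -0.56, -0.46 and -0.45, but it passed background on only 1 array. Daxx, of nuclear bodies, had -0.09, -0.09 and -0.20.

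The interferon-gamma class held members of either sign, and none was called. The 3 guanylate binding proteins measured, GTPases that attack the vacuoles of intracellular pathogens, had negative differences in all 3 comparisons, with medians of -0.53, -0.07 and -0.48 on 11 arrays and -0.76, -0.32 and -0.49 on 9. Gbp2 was 10.89, 11.47 and 10.97 in wild-type CD4 cells, 8.50 and 10.25 in wild-type CD8 cells, 10.49, 10.49 and 9.92 in Thpok-deficient CD4 cells and 9.73, 10.41 and 10.68 in DP cells. All wild-type CD4 arrays were above all others, and the wild-type CD8 arrays lay far apart. The differences were -1.74 ± 0.46 (SE), -0.81 ± 0.41 and -0.84 ± 0.41, with limma adjusted p of 0.143, 0.545 and 0.616. The Gbp genes are related in sequence, and a probe may read several of them.

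The 6 genes of class I antigen processing had small differences, positive for 5, 6 and 5 of them, with medians of 0.21, 0.29 and 0.23 on 11 arrays. Psmb8, a catalytic subunit of the immunoproteasome, was 9.83, 9.57 and 8.03, then 9.96 and 9.18, then 9.95, 9.64 and 9.58, and then 9.81, 9.44 and 8.80. Psmb9, another such subunit, was 8.73, 8.65 and 7.34, then 8.96 and 8.74, then 9.09, 8.64 and 8.73, and then 8.95, 8.79 and 8.30. The lowest array of both genes was replicate 3 of the wild-type CD4 cells. On 9 arrays the medians of the group were -0.07, 0.08 and 0.03, with 2, 5 and 4 of the 6 genes positive. Tapbp, which holds class I molecules to the peptide transporter, was above every wild-type CD4 array in all 3 DP replicates, at 10.52, 10.53 and 10.59 against 10.45, 10.24 and 9.95.

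The 3 remaining comparisons do not involve the wild-type CD4 cells. Between DP and Thpok-deficient CD4 cells, 0 members were called (limma, with 0.00% of all probe sets called) and 0 higher and 1 lower had an unadjusted p under 0.05 (1.03% and 0.996% of all). The member medians were -0.09 for this comparison, -0.02 for DP against wild-type CD8 cells and 0.04 for Thpok-deficient CD4 against wild-type CD8 cells, where those of all probe sets were 0.11, 0.09 and -0.02. After median centring they were -0.22, -0.13 and 0.06, against -0.02, -0.02 and 0.00 for all probe sets. The last of these called 0 members, with 0.0180% of all probe sets called, and had 1 member higher and 0 lower at an unadjusted p under 0.05 (1.01% and 1.37% of all). DP against wild-type CD8 cells called 0 members, with 0.00600% of all probe sets called, and had 1 higher and 1 lower at that p (1.26% and 1.61% of all). Counts of members whose groups did not overlap were 5 higher and 5 lower in the first, where all probe sets gave 15.8% and 6.20%. They were 5 and 0 in the second, with 16.8% and 6.51% of all, and 9 and 3 in the third, with 10.2% and 11.9%. Against wild-type CD4 cells the counts were 4 higher and 14 lower in CD8 cells (11.2% and 11.8% of all), 1 and 11 in Thpok-deficient CD4 cells (10.9% and 9.0%) and 2 and 10 in DP cells (5.93% and 3.95%). The higher member in Thpok-deficient CD4 cells was Irf8, and those in DP cells were Irf8 and Tapbp.

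Upstream of the members, 26 of 31 listed ligands, receptors, kinases, inhibitors and sensors were measured, and limma called none in any comparison on 11 or on 9 arrays. At an unadjusted p under 0.05, wild-type CD8, Thpok-deficient CD4 and DP cells differed from wild-type CD4 cells in 3, 3 and 4 of these 26 genes on 11 arrays, where 11.5%, 10.4% and 9.34% of all probe sets did. On 9 arrays they did in 7, 6 and 7 genes, against 15.5%, 12% and 11.9% of all probe sets. In the comparisons of DP with Thpok-deficient CD4, of DP with wild-type CD8 and of Thpok-deficient CD4 with wild-type CD8 cells, 0 genes did on 11 arrays (2.03%, 2.87% and 2.39% of all) and 4, 2 and 4 on 9 (3.34%, 5.0% and 6.83%). Ifng, which encodes interferon-gamma itself, was 10.48, 9.88 and 7.63 in wild-type CD4 cells, 11.02 and 11.02 in wild-type CD8 cells, 11.46, 11.03 and 11.14 in Thpok-deficient CD4 cells and 11.70, 11.53 and 11.72 in DP cells. Every array outside the wild-type CD4 cells was above every array within. The differences were 1.69 ± 0.62 (SE), 1.88 ± 0.55 and 2.32 ± 0.55, with limma adjusted p of 0.302, 0.230 and 0.138, and on 9 arrays they were 0.84, 1.03 and 1.43 (adjusted p of 0.118, 0.111 and 0.0720). The type I ligands Ifnb1, Ifna4, Ifnk and Ifne were above background on 0 arrays.

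**Figure D4:**
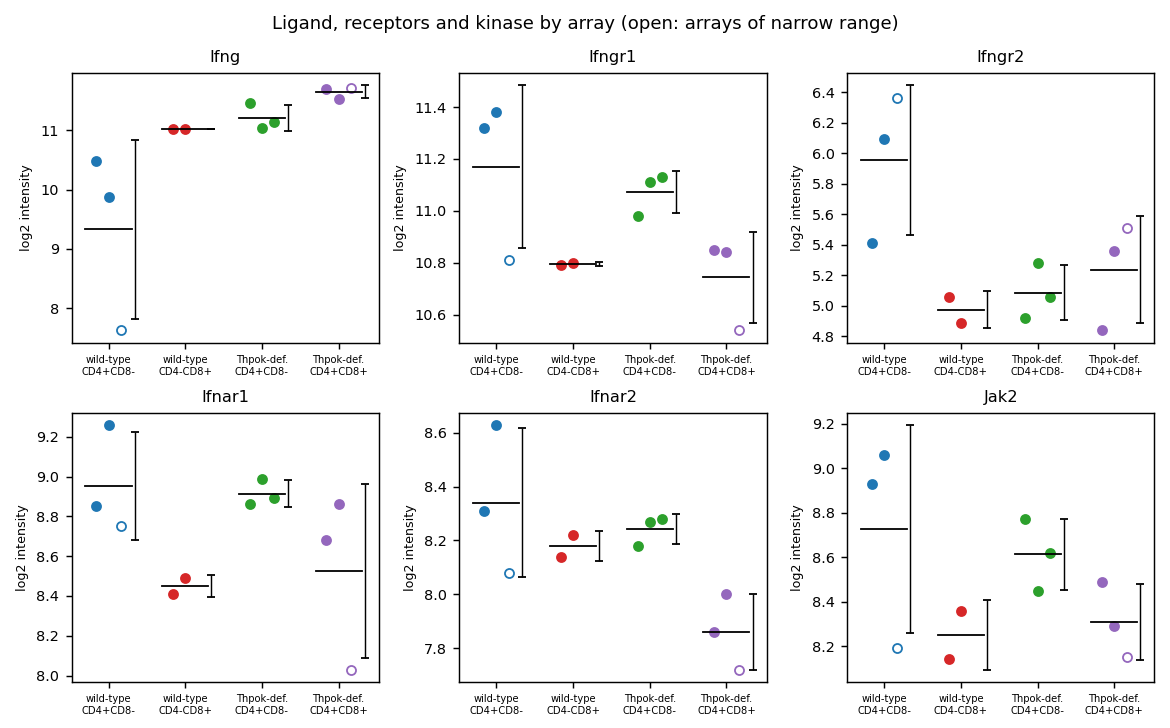
Log2 intensity of interferon-gamma, the 4 receptor chains and the kinase Jak2 on each array by group, with the mean as a line, the SD as a bar and open points for the 2 arrays of narrow range. Ifng is at 10.48 or less on all wild-type CD4 arrays and at 11.02 or more on all others.

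The receptor chain Ifngr2 was above background on 2 arrays, so no difference is given for it. On 9 arrays the partner chain Ifngr1 was -0.55 (limma adjusted p = 0.0516) and the kinase Jak2 was -0.75 (adjusted p = 0.0602) in wild-type CD8 cells. Their group means on 11 arrays lay closer together. Ifngr1 had 11.17 in wild-type CD4, 10.80 in wild-type CD8, 11.07 in Thpok-deficient CD4 and 10.74 in DP cells. Jak2 had 8.73, 8.25, 8.62 and 8.31 in the same order.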

How the data were processed

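RNA of 11 sorted T cell samples was measured on Affymetrix arrays. The authors deposited log2 values per probe set, made by RMA in Partek with build mm9, per the submitters' processing notes. Versions and further settings were not stated there. The design text names an exon array and the labelling protocol a 3' expression kit. Probe sets were named from the platform annotation and updated through RefSeq. Coordinates of promoters are GRCm38.p6.

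Groups came from the titles and characteristics. One limma 3.58.1 model (R 4.3.3) was fitted to 16673 probe sets over 4 groups without a filter, with 7 residual and 3.8 prior degrees of freedom. P-values of the 6 pairwise contrasts and of a moderated F test were adjusted with the Benjamini-Hochberg method, each over every probe set. The script was tested on simulated data. The number of arrays limits the precision.

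The members, classes and lists were chosen with earlier results of these data known. Values per array are given for members past the threshold, the 5 of each class with the widest range of group means, and Irf1, Irf7, Irf8, Irf9 and Stat2. Ifih1, Zbp1, Tapbp and other members outside this rule were named after their values were seen. A median over a class is a description and carries no p. Background was the 95th percentile of the receptor probe sets of each array.

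Same-numbered DP and wild-type CD4 arrays deviated together, with correlations of 0.650, 0.429 and 0.724 over probe sets, the last between the 2 arrays of narrow spread. In each other comparison at least 1 pair did not. The main model held no block, and the replicate block was an alternative fitted to all comparisons and the F test. Deviations within a group sum to nothing, so a narrow array in both groups also moves their other arrays together. The correlations are therefore not independent of each other, and they do not show that the numbers are pairs. Alternatives were a further quantile normalization, median centring, a filter on mean signal, the replicate block, 9 arrays, each array left out and a narrower interferon-gamma class.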

Additional observations from a re-analysis of the deposited data

How the results depend on the processing

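No alternative gave a call against the direction found on 11 arrays. On 11 arrays 0 members were called in each of the 6 comparisons and the F test. Further quantile normalization called 2 in wild-type CD8 against wild-type CD4 cells (Ifit2 and Irf9, both lower). Of all 16673 probe sets it called 93 higher and 147 lower there. The filter on mean signal, which kept 8336 probe sets above 5.692, called 1 there and 1 in DP against wild-type CD4 cells, both Trim34a (adjusted p = 0.0493 and 0.0422). Of the probe sets kept, 52 were called lower in CD8 and 24 in DP cells. The 9 arrays called 2 in the first comparison and 1 in Thpok-deficient CD4 against wild-type CD4 cells. Leaving out each array called 0 to 1 in CD8 and 0 to 1 in DP cells, each against wild-type CD4 cells. Without replicate 1 of the wild-type CD4 cells Trim34a was called in both (-1.55, adjusted p = 0.0448, and -1.64, adjusted p = 0.0347), and without replicate 3 of that group Ifih1 was called in the first (-0.99, adjusted p = 0.0456).

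The replicate block called 1 member by the F test (Trim34a, adjusted p = 0.0427), where 73 of all 16673 probe sets were called. In CD8 against wild-type CD4 cells it called 2 lower (Trim34a and Ifit2, adjusted p = 0.0318 and 0.0313), with 58 probe sets lower. In Thpok-deficient CD4 against wild-type CD4 cells it called Irf8 higher and Ifih1 lower (adjusted p = 0.0389 and 0.0488). There it called 228 probe sets higher and 36 lower, against 11 and 3 without the block. In DP against wild-type CD4 cells it called 1 lower (Trim34a, adjusted p = 0.0247), with 30 probe sets lower. Blocking changed no other count of members called. Members lower at an unadjusted p under 0.05 in CD8 against wild-type CD4 cells numbered 14 with the block and 7 without. Over all probe sets these numbers were 739 and 620.

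The type I median in Thpok-deficient CD4 against wild-type CD4 cells was -0.04 with the filter, where the median of all probe sets kept was 0.15. Narrowed to 7 genes, the interferon-gamma medians were -0.51 in CD8 and -0.39 in DP against wild-type CD4 cells, the latter -0.08 on 9 arrays. Leaving out each array put the 11-gene median between -0.35, without replicate 3 of the wild-type CD4 cells, and 0.19 in DP cells, between -0.16 and 0.20 in CD8 cells and between 0.02 and 0.31 in Thpok-deficient CD4 cells. The type I medians stayed between -0.39 and -0.18 in all 3. The causes were not tested. Quantile normalization moved the median of all probe sets from -0.14 to -0.03 in CD8 and from -0.15 to -0.03 in Thpok-deficient CD4 cells, each against wild-type CD4 cells. Levels not above background, as for Ifih1, set only bounds.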

Other observations

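Ifitm3 had a pooled within-group SD of 1.29, at percentile 99.7 of all probe sets. The SD was 0.78 for Isg20 (percentile 96.6), 0.75 for Samd9l (96.2) and 0.62 for Mx1 (91.9), which was above background on 1 array. Replicate 2 was the lowest array of both Thpok-deficient groups for 7 of the 46 members (15.2%) and for 9.25% of all probe sets. It was the lowest by 0.5 or more in both groups for Isg20, Ifitm3 and Mx1, 3 of 46 members (6.52%), and for 62 probe sets in all (0.372%). This was noticed after the values were seen and has no test. Isg20 was 7.40, 6.13 and 7.75 in Thpok-deficient CD4 cells and 7.75, 6.69 and 8.46 in DP cells. Mx1 was 5.26, 3.86 and 4.88 and then 4.52, 3.60 and 5.12.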
